A study of Mus musculus with 9 samples.

Results

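Integrins and laminins are the receptor and the matrix side of cell adhesion to the basement membrane, and their subunit genes were compared here over 3 layers of the newborn mouse bladder. The genes were taken by symbol, as every gene of the array's annotation whose symbol starts with Itga, Itgb, Lama, Lamb or Lamc, without the Itgb1bp, Itgbl1 and Lamtor genes, a rule that uses no measured value. The rule found 36 genes of 18193 with a symbol of their own, and 35 of them encode subunits, 25 of integrins and 10 of laminins. The remaining one, Itgb3bp, encodes a centromere protein and was left out of every count of subunits. Its differences between layers lay between -0.29 and 0.11 on the log2 scale, and none passed the test. Itga11 and Itgad were not analysed here.

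The layers were detrusor, the smooth muscle coat of the bladder wall, stroma, and urothelium, the epithelium that lines the lumen. Each was cut from frozen sections by laser capture microscopy and measured on 3 Affymetrix MOE430 arrays, 9 in all. All animals were newborn mice of the FVB/N strain that carried an SMGA/EGFP transgene, a green fluorescent reporter of smooth muscle gamma actin, and no group without the transgene was part of the study. Detrusor had 2 arrays of postnatal day 1 and 1 of day 2, and stroma and urothelium each had 1 of day 1 and 2 of day 2. The samples were not pooled and the sex was unknown, per the labels. Nothing in the labels says how many animals gave the 9 samples or whether layers share an animal, so the p-values measure the spread between these samples, which may in part be technical. Array numbers are names only and pair nothing across layers.

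An integrin is a dimer of an alpha and a beta chain that spans the cell membrane, binds matrix outside the cell and couples to the actin or keratin skeleton inside it. A laminin is a trimer of an alpha, a beta and a gamma chain, secreted into the basement membrane, the thin sheet on which epithelia stand and which wraps each muscle cell. In stratified epithelia Itga6 pairs with Itgb4 in hemidesmosomes and binds laminin that holds the Lama3 and Lamb3 chains, whereas muscle cells carry Itga7 with Itgb1 on a sheet that holds the Lama2 chain. The comparisons ask how the chains of these dimers and trimers are spread over the layers of the bladder wall around birth.

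Array signals are given as log2(intensity + 39.31), called level here, and 1 unit is a doubling. Levels of different genes were not set against each other, because each probe set has its own brightness. The layers carried their marker genes, with exceptions on single arrays. The summed intensity of 8 smooth muscle markers was 344420 to 516921 in detrusor, 50739 to 172136 in stroma, and 29669, 20517 and 313643 in urothelium 1, 2 and 3, so that urothelium 3 came close to detrusor. The sum of 8 urothelial markers was 217060 to 297937 in urothelium, 4888 to 6887 in detrusor, and 50521, 16428 and 207750 in stroma 1, 2 and 3. The sum of 8 fibroblast markers was 337110 to 505439 in stroma, 233642 to 321166 in detrusor and 117261 to 238723 in urothelium, and 6 skeletal muscle markers summed to 121541 to 138146 in detrusor against at most 32681, in urothelium 3, on the other arrays. For the Actb control, the 3' signal divided by the 5' signal, which grows where RNA is degraded, was 24.7 in stroma 1 and 2.27 to 8.49 on the other 8 arrays. Within layers, the SD of the middle gene over 3 arrays was 0.386 for detrusor, 0.562 for stroma and 0.416 for urothelium, in log2 units.

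Of the 35 subunit genes, 28 passed the filter on dim probe sets, which asked for a signal not under the median of an array on 3 or more of the 9. These were 18 integrin and 10 laminin genes. The other 7, Itgae, Itgam, Itgax, Itgb4, Itgb6, Itgb7 and Itgb8, did not, and the table carries no detection calls, so a dim value cannot be called absent. Differences were tested with limma in 1 fit over 9 arrays and 13064 genes, and a difference with a Benjamini-Hochberg adjusted p under 0.05 over all those genes was called. Since a gene high in 1 layer alone can pass the filter through that layer, counts over the 28 describe them and are no support for a difference.

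Of the 28 genes, 10 were called in at least 1 pair of layers, where 17.7% of all genes tested were, and urothelium against detrusor was the pair that set most of them apart. Between those layers 6 subunits were lower in urothelium, the integrin chains Itga1, Itga7, Itga9 and Itgb3 and the laminin chains Lama2 and Lamb2, where 8.05% of all genes tested were called lower. Another 3 were higher in urothelium, Itga6, Itgb5 and Lamb3, where 8.37% of all genes were. With the mean of a gene's passing probe sets in place of 1 probe set, 1 subunit was called higher and 8 lower. Itga6 and Itgb5 were then not called. The arrays of these layers did not overlap for 18 of the 28 genes, which is 64.3%, against 39.3% of all genes tested. The median difference of the 28 was -0.47 log2 units, with -0.01 over all genes. In tissue samples of this kind, fewer cells of a type and less RNA per cell cannot be told apart.

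Between detrusor and stroma, 2 subunits were called, Itga4 and Itga6, both lower in detrusor, and 2.72% of all genes were called lower. None of the 28 was called higher in detrusor, where 3.12% of all genes were. The arrays did not overlap for 10 of the 28 (35.7%), against 27.1% of all genes, and the median difference was -0.18 against -0.16 over all genes. These counts depended on the scaling and on postnatal day, which is spread unevenly over the layers. With each array centred on its median, the median of all genes moved by 0.41 log2 units, from -0.16 to 0.25, and 4 subunits were called higher in detrusor and 1 lower. Over all genes 588 were then called higher and 144 lower, against 408 and 355 in the main fit. With quantile normalization, which moved the median of all genes by 0.126, 2 subunits were called higher and 2 lower, beside 476 and 324 of all genes. With postnatal day as a covariate, 4 subunits were called higher, Itga1 (3.46, limma adjusted p = 0.0343), Itga7 (2.48, adjusted p = 0.0451), Itga9 (2.92, adjusted p = 0.0214) and Itgb3 (5.02, adjusted p = 0.0447), and 2 lower. Over all genes 702 were called in either direction with that covariate and 763 without it.

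Between urothelium and stroma, limma called none of the 28 subunits in either direction. Calls were few over the whole array as well, with 0.0612% of all genes called higher in urothelium and 0.168% lower. The arrays did not overlap for 6 of the 28 (21.4%), against 23.1% of all genes, and the median difference was -0.45 against -0.12 over all genes. A single test of any difference among the 3 layers, limma's F-test, called Itga1, Itga4, Itga6, Itga7, Itga9, Itgb3 and Lama2, 7 of 28 (25%), against 14.9% of all genes tested. The mean level of a subunit was highest in detrusor for 10 genes, in stroma for 11 and in urothelium for 7, and over all genes these shares were 32.3%, 37.1% and 30.6%.

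**Figure D1:**
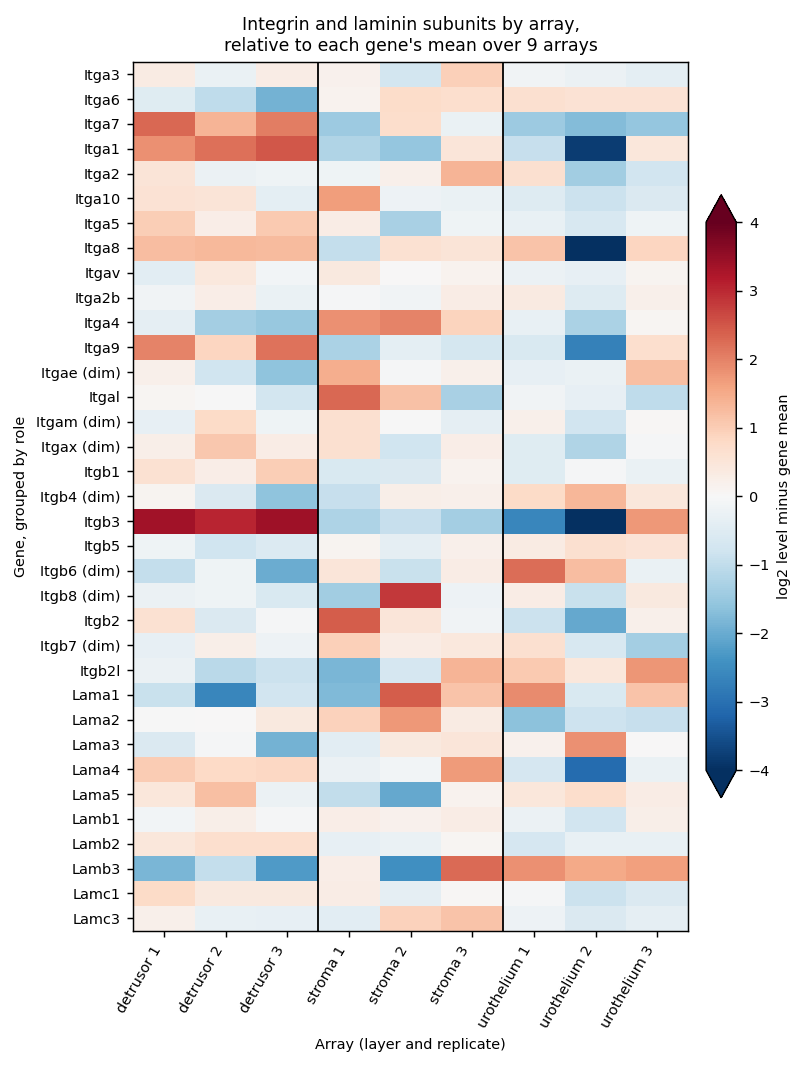
Level of each of the 35 integrin and laminin subunit genes (rows, grouped by role) on each of the 9 arrays (columns), drawn as the log2 level minus the gene's mean over the 9 arrays, with the colour scale ending at -4 and 4. The 7 genes marked dim did not pass the filter. Itgb3, Itga1, Itga7 and Itga9 stand high on the 3 detrusor arrays, Itga4 on the 3 stroma arrays, and Lamb3 on the 3 urothelium arrays and stroma 3.

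The promoters of 4 called genes are shown because their differences took 3 forms, Itga1 and Lama2 low in urothelium against detrusor, Lamb3 high in that pair and Itga4 high in stroma against detrusor. They were chosen after these values were seen. The letters are the 250 bases before the annotated start, 5' to 3' on the gene's own strand, from RefSeq's table for GRCm38.p6, which matched 24 of the 36 genes. Capitals mark a match to a searched motif.
Itga1, chr13:115101965-115102214, minus strand: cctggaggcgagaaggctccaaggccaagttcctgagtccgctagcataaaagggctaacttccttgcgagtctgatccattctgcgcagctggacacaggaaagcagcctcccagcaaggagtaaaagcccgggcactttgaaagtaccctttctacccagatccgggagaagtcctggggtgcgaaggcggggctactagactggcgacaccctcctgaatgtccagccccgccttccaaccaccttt
Itga4, chr2:79255176-79255425, plus strand: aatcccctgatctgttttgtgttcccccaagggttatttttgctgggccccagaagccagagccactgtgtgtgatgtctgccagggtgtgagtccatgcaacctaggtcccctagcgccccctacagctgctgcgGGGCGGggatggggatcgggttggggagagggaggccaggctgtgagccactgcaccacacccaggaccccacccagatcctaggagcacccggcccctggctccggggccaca
Lama2, chr10:27616943-27617192, minus strand: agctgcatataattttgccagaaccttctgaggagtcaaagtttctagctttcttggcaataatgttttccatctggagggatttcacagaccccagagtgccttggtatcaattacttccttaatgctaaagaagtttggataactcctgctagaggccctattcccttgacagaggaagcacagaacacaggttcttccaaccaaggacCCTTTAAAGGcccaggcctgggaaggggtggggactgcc
Lamb3, chr1:193301744-193301993, plus strand: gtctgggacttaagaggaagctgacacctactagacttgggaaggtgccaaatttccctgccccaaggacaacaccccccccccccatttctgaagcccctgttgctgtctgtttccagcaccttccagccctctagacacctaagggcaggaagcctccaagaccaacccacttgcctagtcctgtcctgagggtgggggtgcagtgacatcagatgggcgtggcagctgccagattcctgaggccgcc

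Both strands were searched for 5 motifs, an AP-1 site (TGANTCA), a GRHL site (AACCNGTT), a TEAD site (CATTCC), an Sp1 site (GGGCGG) and the CArG box, the site of serum response factor, given by name. None of these motifs contains another. The Itga4 window held 1 Sp1 match, whose first base lay 114 bases before the start, in a window of 64.0% G and C. The Lama2 window, the poorest of the 4 in G and C at 47.2%, held 1 CArG box whose first base lay 39 bases before the start. The windows of Itga1 (57.6% G and C) and Lamb3 (58.8%) held no match to these letters. Over the 24 matched genes, 8 held the Sp1 letters, 2 the TEAD letters, 1 the AP-1 letters, 1 the CArG box and 0 the GRHL letters. Among 32851 promoters of the same length the shares were 32.7% for Sp1, 12.6% for TEAD, 6.75% for AP-1, 1.47% for the CArG box and 1.79% for GRHL. These shares count every start in the table, whereas each of the 24 genes has 1 start, so the bases differ. The matches are descriptions of letters, and no binding was measured.

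Among the alpha chains that bind laminin, Itga7 and Itga6 had opposite layers. Itga7, the laminin receptor chain of skeletal, heart and smooth muscle, had levels of 9.99, 9.05 and 9.76 on the detrusor arrays, 6.25, 8.40 and 7.44 in stroma and 6.26, 5.97 and 6.17 in urothelium. Detrusor lay above every array of both other layers. The difference of urothelium from detrusor was -3.47 ± 0.61 log2 units (SE, n = 3 and 3), an 11.1-fold lower signal (limma adjusted p = 0.00369), and it passed under every one of the 20 alternatives that gave a value, with adjusted p from 0.000185 to 0.0229. Detrusor stood 2.24 ± 0.61 above stroma (adjusted p = 0.0567), which did not pass, and 7 alternatives brought that difference past the threshold, median centring (2.65, adjusted p = 0.0282) and the fit without stroma 2 (2.75, adjusted p = 0.0256) among them. Skeletal muscle markers were also high on the detrusor arrays, and their part in the Itga7 level was not tested. On urothelium 3, which carried smooth muscle transcripts, Itga7 was as low as on the other urothelium arrays, and the part of these transcripts was not tested either.

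Itga6, the alpha chain of the hemidesmosome integrin and also a partner of Itgb1, stood at 12.80, 12.25 and 11.40 in detrusor, 13.43, 14.02 and 13.96 in stroma and 13.93, 13.86 and 13.86 in urothelium. The detrusor arrays were below all others, while stroma and urothelium overlapped. Urothelium was 1.73 ± 0.35 above detrusor, 3.33-fold (limma adjusted p = 0.00715), and detrusor was 1.65 ± 0.35 below stroma, 3.14-fold (log2 -1.65, adjusted p = 0.0237). Urothelium and stroma differed by 0.08 ± 0.35 (adjusted p = 0.933). Both calls belonged to 1 of 2 probe sets. The other one gave 1.03 ± 1.02 for urothelium against detrusor and -0.63 ± 1.02 for detrusor against stroma, neither called, with stroma at 7.89, 12.49 and 12.35. The low value was that of stroma 1, the array with the Actb ratio of 24.7, and the part of RNA quality in it was not tested. The mean of the probe sets ended both calls (adjusted p = 0.168 and 0.313). The call against stroma also ended with median centring (-1.24, adjusted p = 0.120) and without detrusor 2 (-1.70, adjusted p = 0.0694), detrusor 3 (-1.28, adjusted p = 0.0920) or stroma 3 (-1.58, adjusted p = 0.0626, and 0.0830 with urothelium 3 left out as well).

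Itgb4, the beta chain that ties Itga6 to keratin in the hemidesmosome, was dim on the single probe set that stands for it. Its levels were 7.35, 6.65 and 5.64 in detrusor, 6.31, 7.45 and 7.44 in stroma and 7.99, 8.57 and 7.70 in urothelium, and only urothelium 2 was above the median of its array. The urothelium arrays lay above those of both other layers. Tested with no filter on dim probe sets, the difference of urothelium was 1.54 ± 0.55 from detrusor (limma adjusted p = 0.111) and 1.02 ± 0.55 from stroma (adjusted p = 0.385). Neither was called. Itga3, a laminin receptor chain of many epithelia that pairs with Itgb1, ranged from 9.79 to 11.49 over the 9 arrays, both ends being stroma arrays, and its differences between layers were at most 0.40 log2 units in size with SE 0.43.

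**Figure D2:**
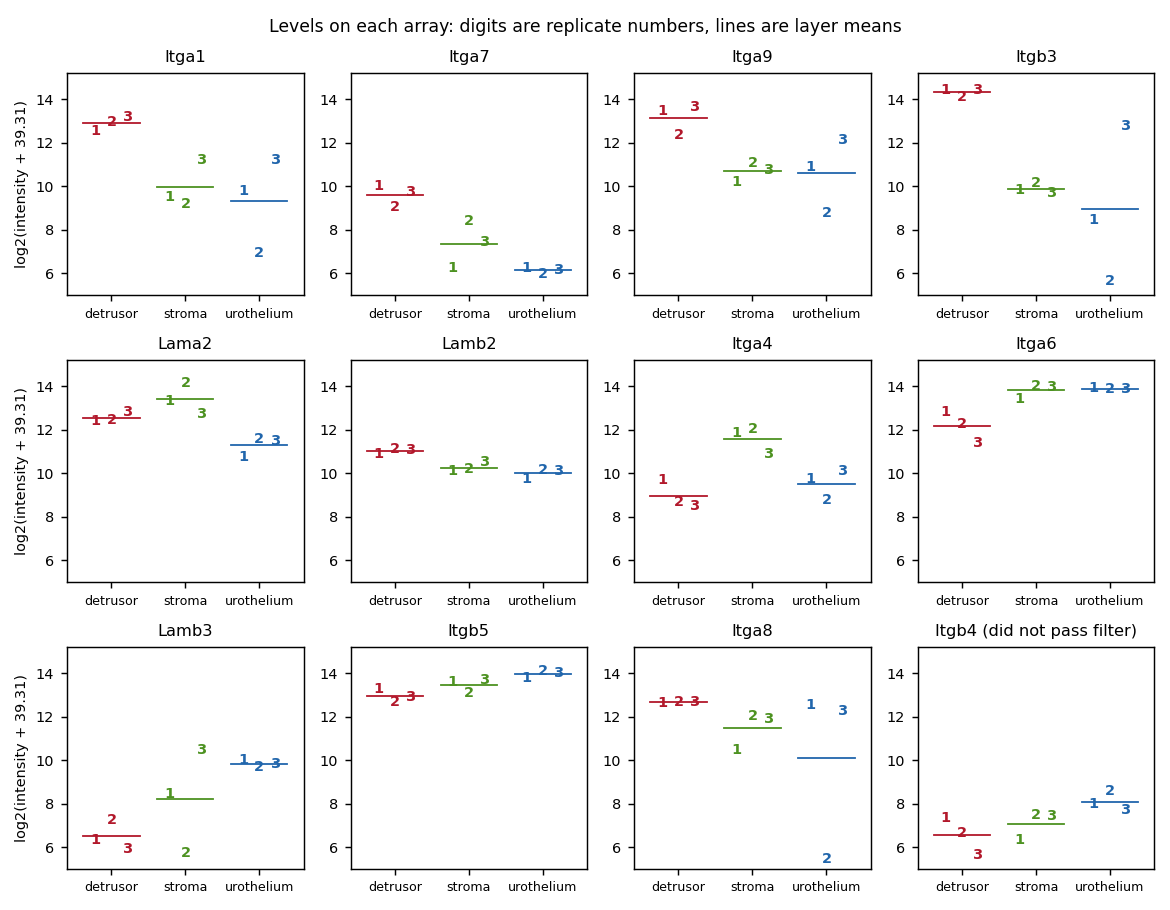
Levels of 12 integrin and laminin genes on every array, one panel per gene, with layer on the x axis and log2(intensity + 39.31) on the y axis. Each digit is the array of that number and each line the mean of 3 arrays. The detrusor arrays lie above all others for Itga1, Itga7, Itga9 and Itgb3, the stroma arrays above all others for Itga4, and urothelium 2 lies far below the other urothelium arrays for Itga8.

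Of the collagen-binding alpha chains, Itga1 was the one called. Itga1 pairs with Itgb1 and is a collagen receptor of smooth muscle and other mesenchymal cells. Its levels were 12.56, 12.94 and 13.21 in detrusor, 9.53, 9.17 and 11.21 in stroma and 9.80, 6.92 and 11.19 in urothelium. Every detrusor array was above every other array. Urothelium was 3.60 ± 0.91 log2 units below detrusor (log2 -3.60), 12.1-fold lower (limma adjusted p = 0.0207), and a second probe set gave -3.06. The call ended without detrusor 2 (-3.58, adjusted p = 0.0640) or detrusor 3 (-3.45, adjusted p = 0.0788). Urothelium 3 had the highest Itga1 of its layer and also the high smooth muscle sum, and without that array the difference was -4.54 (adjusted p = 0.00514). The part of smooth muscle transcripts in the Itga1 level was not tested. Detrusor stood 2.93 ± 0.91 above stroma (adjusted p = 0.0860), a difference that passed under 7 of 21 alternatives, with stroma 3 and urothelium 3 both left out (3.55, adjusted p = 0.0352) and without urothelium 2 (adjusted p = 0.0190) or 3 (adjusted p = 0.0469) among them. Its promoter is the first of those shown above.

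The other collagen receptor chains were not called. Itga2 ranged from 6.50 on urothelium 2 to 9.27 on stroma 3, and Itga10 from 7.84 on urothelium 2 to 10.38 on stroma 1. For Itga10 the urothelium arrays lay below those of both other layers, with differences of -0.88 ± 0.57 from detrusor (limma adjusted p = 0.347) and -1.05 ± 0.57 from stroma (adjusted p = 0.359).

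Itga4 and Itga9 are related alpha chains of which Itga4 binds fibronectin and VCAM1 and Itga9 binds tenascin C, osteopontin and EMILIN1, and they were high in different layers. Itga4 had levels of 9.67, 8.66 and 8.49 in detrusor, 11.86, 12.02 and 10.90 in stroma and 9.72, 8.75 and 10.10 in urothelium. All stroma arrays were above all others, and detrusor and urothelium overlapped. Detrusor was lower than stroma by 2.65 ± 0.50 log2 units (log2 -2.65), 6.27-fold (limma adjusted p = 0.0169). Urothelium differed from stroma by -2.07 ± 0.50 (adjusted p = 0.0682), which passed with a pseudocount at the median (-1.80, adjusted p = 0.0486), without stroma 3 (-2.41, adjusted p = 0.0379) and with stroma 3 and urothelium 3 left out (-2.70, adjusted p = 0.0405). Without detrusor 2 (-2.51, adjusted p = 0.0658) or detrusor 3 (-2.42, adjusted p = 0.0840) the call against detrusor ended. A second probe set that passed the filter gave -1.29 ± 0.58 (adjusted p = 0.216) for that pair.

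Itga4 is also carried by leukocytes, and sums of leukocyte and endothelial markers are given beside it. The sum of 8 leukocyte markers was 70716, 9341 and 31438 in stroma, 6696 to 12592 in detrusor and 6089 to 9457 in urothelium. Stroma 1 and 3 were thus above every array of the other layers. Stroma 2, which had the highest Itga4, lay within the detrusor range of that sum. The single markers did not all have the order of the sum. Ptprc stood at 8.36, 6.25 and 7.82 in stroma and at 10.17, 7.19 and 10.77 in urothelium. The difference of urothelium from stroma was 1.90 for Ptprc, 0.86 for Cd14 and -2.97 to -1.52 for the other leukocyte markers, with 0 of the 8 called. The sum of 7 endothelial markers was 29153, 13371 and 22737 in stroma, 6245 to 18842 in detrusor and 3037 to 9623 in urothelium, and the part of either cell type in the Itga4 level was not tested.

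Itga9 had levels of 13.47, 12.34 and 13.64 in detrusor, 10.22, 11.08 and 10.76 in stroma and 10.88, 8.78 and 12.15 in urothelium. The detrusor arrays were above all others, with detrusor 2 and urothelium 3 close to each other. Urothelium was lower than detrusor by 2.54 ± 0.71 (log2 -2.54), 5.83-fold (limma adjusted p = 0.0335). The call ended without detrusor 1 (-2.38, adjusted p = 0.103), detrusor 3 (-2.30, adjusted p = 0.126), urothelium 1 (-2.68, adjusted p = 0.0660) or urothelium 2 (-1.63, adjusted p = 0.0790). Without urothelium 3 it stood at -3.32 (adjusted p = 0.00662). Detrusor was 2.46 ± 0.71 above stroma (adjusted p = 0.0715), not called, and the same difference passed under 7 alternatives, with adjusted p from 0.0133 in a fit of the 6 arrays compared. The second passing probe set of Itga9 gave -1.14 ± 0.50 for urothelium against detrusor (adjusted p = 0.153). For detrusor against stroma it gave 0.18, with overlapping arrays.

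The RGD-binding alpha chains, named for the short peptide motif they recognise in fibronectin and vitronectin, were not called in any pair. Itga8, a partner of Itgb1 that binds nephronectin and is carried by mesenchyme and smooth muscle, had the widest spread, with an SE of 1.47, the largest of the 28 genes. Its levels were 12.63, 12.68 and 12.68 in detrusor, 10.46, 12.01 and 11.90 in stroma and 12.54, 5.44 and 12.26 in urothelium. Urothelium 1 and 3 came close to detrusor and urothelium 2 was near the lowest value the scale allows. The difference of urothelium from detrusor was -2.59 ± 1.47 (limma adjusted p = 0.277), and without urothelium 2 it was -0.26 (adjusted p = 0.785). Detrusor stood 1.21 ± 1.47 above stroma (adjusted p = 0.660) with no overlap of the arrays, and without urothelium 2 the same difference had an SE of 0.41 and an adjusted p of 0.117.

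Markers of mesenchymal cells are given beside these values, and their part in the Itga8 level was not tested. The sum of the smooth muscle markers was 29669 in urothelium 1, 20517 in urothelium 2 and 313643 in urothelium 3. The median level of 5 pericyte markers was 12.53 to 12.84 in detrusor, 11.44 to 12.09 in stroma and 10.82, 8.72 and 11.39 in urothelium, lowest on urothelium 2. Their summed intensity had another order, with 28090 to 42466 in detrusor, 18311 to 57062 in stroma and 58900, 61093 and 67387 in urothelium. Of these 5, Kcnj8 (-3.33), Cspg4 (-2.96) and Abcc9 (-2.17) were lower in urothelium than in detrusor, Rgs5 was higher (2.35) and Pdgfrb was not called (-1.32). A second probe set of Itga8 was also at the bottom of the scale on urothelium 2 (5.51, against 10.90 and 9.30 on urothelium 1 and 3). It was low on detrusor 2 (5.99, against 11.75 and 10.39) and stroma 1 (5.85, against 8.98 and 9.0) as well, where the first probe set stood at 12.68 and 10.46.

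Itgav, the alpha chain shared by Itgb1, Itgb3, Itgb5, Itgb6 and Itgb8, had no called difference. Its levels were 15.41, 16.25 and 15.72 in detrusor, 16.20, 15.83 and 15.95 in stroma and 15.60, 15.48 and 15.93 in urothelium, and the differences between layers were -0.20, -0.33 and -0.13 with SE 0.24 (limma adjusted p from 0.512 to 0.797). Itga2b, the platelet partner of Itgb3, ranged from 8.91 to 9.78 over the 9 arrays, with no difference over 0.07 log2 units in size (SE 0.39). Itga5, the fibronectin receptor chain, had 9.24, 8.53 and 9.32 in detrusor, 8.56, 6.98 and 8.09 in stroma and 7.97, 7.63 and 8.08 in urothelium. Its difference of urothelium from detrusor was -1.13 ± 0.52 (adjusted p = 0.173), without overlap of the arrays. Its 2 other passing probe sets gave -1.96 and -2.53, and the difference passed with the mean of the probe sets (-1.87) and with array weights, with adjusted p from 0.0331 to 0.396 over 20 alternatives.

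**Figure D3:**
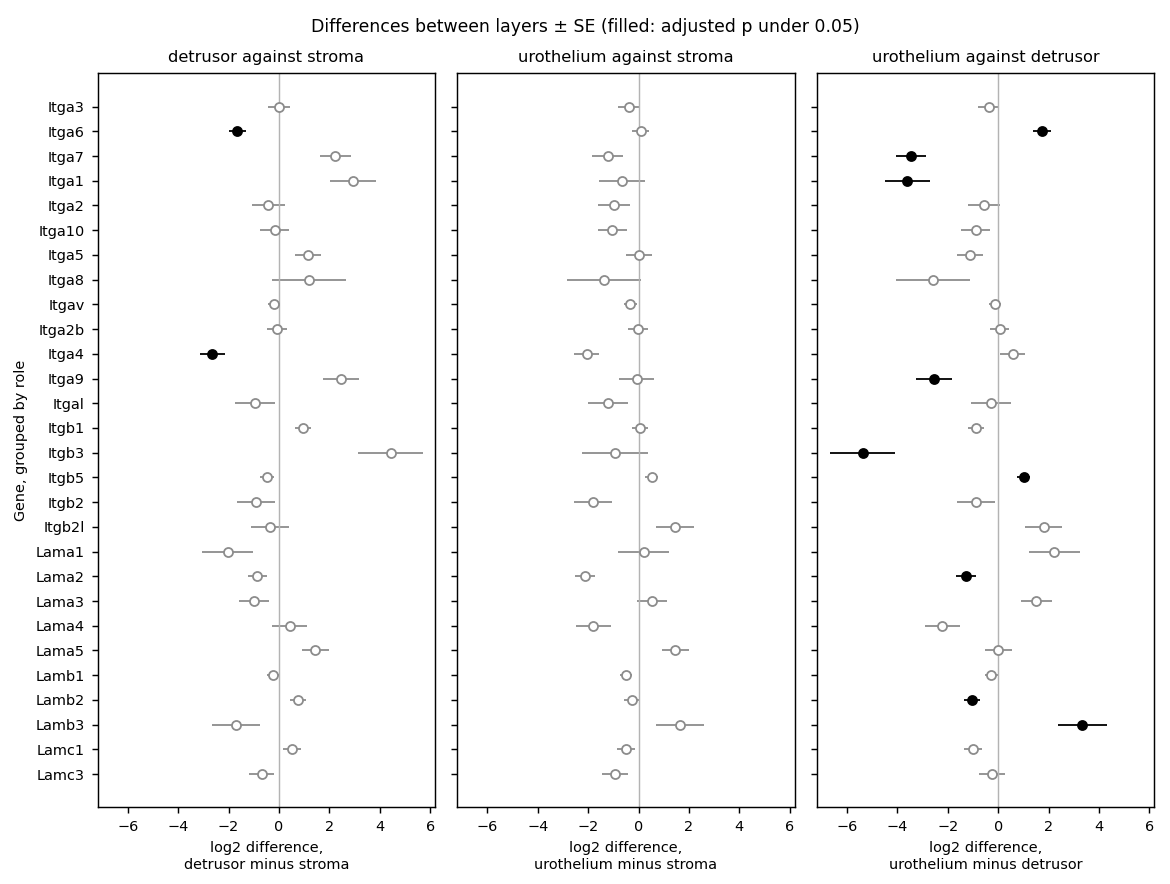
Differences between layers for the 28 subunit genes that passed the filter (rows, grouped by role), on the log2 scale with standard errors as bars, one panel for each pair of layers. Filled points have a limma adjusted p under 0.05. There are 2 filled points for detrusor against stroma, 0 for urothelium against stroma and 9 for urothelium against detrusor.

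Itgb3 showed the largest difference of the 28 genes. Its product pairs with Itgav in the vitronectin receptor and with Itga2b on platelets. Levels were 14.42, 14.09 and 14.44 in detrusor, 9.81, 10.14 and 9.70 in stroma and 8.46, 5.62 and 12.77 in urothelium. The 3 detrusor arrays lay close together and above all others, while the urothelium arrays lay far apart. Urothelium was lower than detrusor by 5.37 ± 1.30 (log2 -5.37), 41.3-fold (limma adjusted p = 0.0170). The call ended without detrusor 1 (-5.32, adjusted p = 0.0520), detrusor 2 (-5.48, adjusted p = 0.0521), detrusor 3 (-5.31, adjusted p = 0.0621) or urothelium 1 (-5.12, adjusted p = 0.0532).

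Urothelium 3, the array with the smooth muscle sum of 313643, was the urothelium array with high Itgb3. Without it, the difference from detrusor was -7.28 (limma adjusted p = 0.000194), and the part of smooth muscle transcripts in the Itgb3 level was not tested. Detrusor stood 4.44 ± 1.30 above stroma (adjusted p = 0.0728), not called in the fit of 9 arrays, and 8 alternatives of 21 brought it past the threshold, among them the fits without urothelium 3 (adjusted p = 0.00321), without urothelium 2 (adjusted p = 0.0183) and with stroma 3 and urothelium 3 left out (4.34, adjusted p = 0.0140). A second probe set had levels of 8.21 to 8.66 in detrusor, 5.89 to 6.35 in stroma and 5.68 to 5.97 in urothelium, with detrusor above all others. It gave -2.70 for urothelium against detrusor and 2.44 for detrusor against stroma (adjusted p = 0.0266). On this probe set urothelium 3 was the lowest of the 9 arrays. Of the platelet markers, Pf4 stood at 13.31, 11.80 and 13.33 in detrusor and 15.64, 12.19 and 14.39 in stroma, and Gp1bb and Ppbp differed by -0.77 and -0.32 between detrusor and stroma. The part of platelets in the Itgb3 level was not tested.

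Itgb5, another partner of Itgav and a vitronectin receptor chain, was called higher in urothelium than in detrusor by 1 of its 4 probe sets. That set had levels of 13.29, 12.67 and 12.91 in detrusor, 13.58, 13.08 and 13.66 in stroma and 13.79, 14.11 and 13.99 in urothelium. The difference was 1.01 ± 0.27, 2.01-fold (limma adjusted p = 0.0275). The other probe sets, which all passed the filter, gave -0.32, -0.30 and -0.43, and none of these was called (adjusted p from 0.330 to 0.637). The mean of the 4 gave -0.0084 (adjusted p = 0.988). The direction for Itgb5 is therefore that of 1 probe set. The call also ended with median centring (1.01, adjusted p = 0.117) and without any of detrusor 2 (0.86), detrusor 3 (0.98), urothelium 1 (1.09), urothelium 2 (0.93) and urothelium 3 (0.99), with adjusted p from 0.0591 to 0.0929.

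Itgb1, the common partner of most alpha chains above, had levels of 13.30, 12.94 and 13.68 in detrusor, 12.08, 12.11 and 12.83 in stroma and 12.19, 12.63 and 12.42 in urothelium. The detrusor arrays were above all others. Detrusor stood 0.96 ± 0.31 above stroma (limma adjusted p = 0.0997) and urothelium -0.89 ± 0.31 from detrusor (adjusted p = 0.0797), and neither was called. The second of these passed with array weights (-1.10, adjusted p = 0.00612) and in a fit of the 6 arrays compared (adjusted p = 0.0485). Itgb6 and Itgb8, partners of Itgav whose dimers activate latent TGF-beta, did not pass the filter. Itgb6 had 6.60, 7.37 and 5.56 in detrusor, 8.03, 6.66 and 7.86 in stroma and 9.79, 8.77 and 7.29 in urothelium, and without the filter its difference of urothelium from detrusor was 2.11 ± 0.72 (adjusted p = 0.0929). Itgb8 stayed between 5.47 and 7.25 on 8 arrays and reached 9.68 on stroma 2.

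The integrin chains of leukocytes were dim or not called. Itgam, Itgax, Itgae and Itgb7 did not pass the filter, with levels of 5.43 to 6.96 for Itgam and 5.59 to 7.88 for Itgax over the 9 arrays. Itgb2, the beta chain that pairs with Itgal, Itgam and Itgax, had 9.15, 7.99 and 8.49 in detrusor, 10.96, 9.03 and 8.41 in stroma and 7.69, 6.50 and 8.76 in urothelium, and Itgal had 8.14, 8.05 and 7.35 in detrusor, 10.38, 9.24 and 6.76 in stroma and 7.94, 7.74 and 7.04 in urothelium. Both were highest on stroma 1, the array with the highest leukocyte sum (70716). On stroma 3, which had the next highest sum (31438), Itgal was the lowest of the 9 arrays. Itgb2 on stroma 3 was below detrusor 1, detrusor 3 and urothelium 3. The part of leukocytes in these levels was not tested. Itgb2l, named for its likeness to Itgb2, had 7.85, 7.0 and 7.23 in detrusor and 9.12, 8.54 and 9.83 in urothelium, a difference of 1.80 ± 0.75 (limma adjusted p = 0.136).

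Among the laminin alpha chains Lama2 was called. Lama2 is the alpha chain of muscle and peripheral nerve basement membranes. It had levels of 12.40, 12.44 and 12.80 in detrusor, 13.32, 14.13 and 12.74 in stroma and 10.75, 11.58 and 11.50 in urothelium. The urothelium arrays were below all others, and detrusor and stroma overlapped. Urothelium was lower than detrusor by 1.27 ± 0.39 (log2 -1.27), 2.41-fold (limma adjusted p = 0.0465). It differed from stroma by -2.12 ± 0.39 (adjusted p = 0.0538), which passed under 6 alternatives, without stroma 3 (-2.45, adjusted p = 0.0112) and with stroma 3 and urothelium 3 left out (-2.56, adjusted p = 0.0203) among them. The call against detrusor was lost under 11 alternatives, among them the fits without any 1 of the 3 detrusor arrays, the 3 urothelium arrays or stroma 1, with differences from -1.42 to -1.01 and adjusted p from 0.0527 to 0.166, and with median centring (-1.26, adjusted p = 0.177) or postnatal day as a covariate (-1.27, adjusted p = 0.0678). The single CArG box found among the 24 matched promoters was that of Lama2.

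Lama4, the alpha chain of vessels and mesenchyme, had 14.35, 14.13 and 14.13 in detrusor, 13.08, 13.22 and 15.01 in stroma and 12.66, 10.23 and 13.06 in urothelium. On this probe set urothelium lay below both other layers, with differences of -2.22 ± 0.69 from detrusor (limma adjusted p = 0.0506) and -1.79 ± 0.69 from stroma (adjusted p = 0.192), and the first of these passed under 10 alternatives. A second passing probe set of Lama4 gave -1.99 from detrusor and -1.12 from stroma. There urothelium 3 (12.80) lay above stroma 2 and stroma 3 (12.70). Lama5, an alpha chain of most epithelial and many other basement membranes, had 11.46, 12.20 and 10.78 in detrusor, 10.01, 8.96 and 11.13 in stroma and 11.45, 11.70 and 11.31 in urothelium. Urothelium differed from detrusor by 0.0049 ± 0.54 (adjusted p = 0.997), and both means stood 1.45 above stroma (adjusted p = 0.141 and 0.174), not called. Its second probe set gave 6.72, 7.48 and 9.93 in stroma, the highest being again stroma 3. Lama1, an alpha chain of early embryonic and some epithelial basement membranes, spread from 6.34 on detrusor 2 to 11.38 on stroma 2, and its urothelium arrays (10.86, 8.36 and 10.09) lay above those of detrusor by 2.24 ± 1.01 (adjusted p = 0.169).

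Lama3 and Lamb3 are chains of the laminin to which hemidesmosomes attach, and of these Lamb3 was called. Lamb3 had levels of 6.34, 7.23 and 5.91 in detrusor, 8.43, 5.72 and 10.44 in stroma and 10.01, 9.68 and 9.83 in urothelium. The urothelium arrays lay close together and above detrusor, and stroma covered the whole range, with stroma 3 the highest of the 9 arrays. Urothelium was 3.35 ± 0.95 above detrusor, 10.2-fold (limma adjusted p = 0.0357). The call ended without any 1 of the detrusor arrays (3.05 to 3.72) or urothelium arrays (3.26 to 3.42), with adjusted p from 0.0600 to 0.126, and with the lowest pseudocount (3.99, adjusted p = 0.0522). Against stroma the difference of urothelium was 1.64 ± 0.95 (adjusted p = 0.387).

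The urothelial marker sum was 50521, 16428 and 207750 in stroma 1, 2 and 3, the same order as the 3 Lamb3 levels, and the part of urothelial transcripts in them was not tested. Without stroma 3 the difference of urothelium from stroma was 2.76 (limma adjusted p = 0.0823), and without stroma 2 it was 0.40 (adjusted p = 0.778). Detrusor against stroma was -1.70 ± 0.95 (adjusted p = 0.318) and was called without stroma 2 (-2.94, adjusted p = 0.0289). Lama3 had 9.48, 10.01 and 8.15 in detrusor, 9.62, 10.46 and 10.53 in stroma and 10.22, 11.89 and 10.08 in urothelium. Its urothelium arrays lay above detrusor by 1.52 ± 0.60 (adjusted p = 0.118), which passed with array weights (1.46, adjusted p = 0.0437).

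Of the other beta and gamma chains, Lamb2 was called. Lamb2, a beta chain of muscle, vessel and kidney basement membranes, had 10.88, 11.09 and 11.08 in detrusor, 10.09, 10.17 and 10.50 in stroma and 9.74, 10.13 and 10.12 in urothelium. The detrusor arrays were above all others. Urothelium was lower than detrusor by 1.02 ± 0.32 (log2 -1.02), 2.03-fold, at the edge of the threshold (limma adjusted p = 0.0499), and 14 alternatives ended the call, with adjusted p up to 0.166. Among them were the fits without any 1 of the detrusor or urothelium arrays or stroma 3 (-1.09 to -0.90) and those with median centring (-1.02, adjusted p = 0.138) or postnatal day as a covariate (-1.04, adjusted p = 0.0741). Lamb1, the beta chain of most laminins, kept between 14.46 and 15.51 on all arrays, with differences of at most 0.50 in size (SE 0.25). Lamc1, the gamma chain of most laminins, had 11.56, 11.19 and 11.20 in detrusor, 11.12, 10.45 and 10.85 in stroma and 10.75, 9.95 and 10.23 in urothelium, with urothelium at -1.01 ± 0.35 from detrusor (adjusted p = 0.0742). Its second probe set spread from 7.64 on stroma 1 to 12.47 on stroma 3. Lamc3 had a range of 7.73 to 9.45 and no call.

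**Figure D4:**
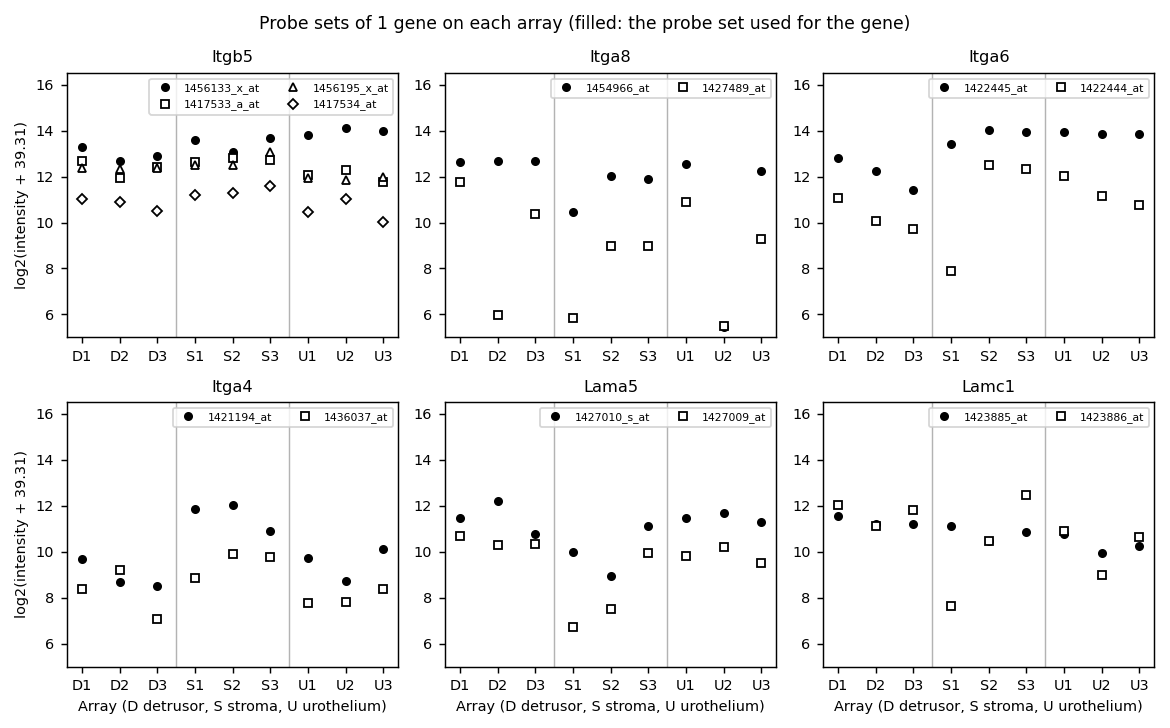
Levels of 6 genes with more than 1 passing probe set on the 9 arrays (D detrusor, S stroma, U urothelium), with log2(intensity + 39.31) on the y axis and 1 symbol per probe set. Filled circles are the probe set used for the gene. The 4 probe sets of Itgb5 differ in direction between U and D, and the second probe sets of Itga6, Itga8 and Lamc1 drop on stroma 1.

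Genes that work with these subunits were counted from 4 textbook lists. Among 6 hemidesmosome partners, 2 were higher in urothelium than in detrusor and 0 lower, where 8.37% and 8.05% of all genes tested were, with a median difference of 1.35 log2 units against -0.01 over all genes. These were Krt5, a keratin of basal epithelial cells (5.34 ± 0.86, limma adjusted p = 0.00263), and its partner keratin Krt14 (5.24 ± 0.99, adjusted p = 0.00525). Col17a1, the transmembrane collagen of hemidesmosomes, stood at 8.27, 5.51 and 6.81 in detrusor and 8.34, 10.03 and 9.0 in urothelium, a difference of 2.27 ± 0.79 (adjusted p = 0.0770). None of the 6 was called in the other pairs of layers, where the medians were -0.90 for detrusor against stroma and 0.46 for urothelium against stroma (-0.16 and -0.12 over all genes). Krt5 is also one of the 8 urothelial markers.

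Among 19 other basement membrane genes, 4 were higher and 5 lower in urothelium than in detrusor, beside 8.37% and 8.05% of all genes. Detrusor against stroma gave 1 higher and 2 lower, beside 3.12% and 2.72%. No gene of the list was called between urothelium and stroma. Fras1, an epithelial basement membrane protein, was 4.36 ± 0.60 above detrusor in urothelium (limma adjusted p = 0.00147) and was lower in detrusor than in stroma (-3.00 ± 0.60, adjusted p = 0.0199), the latter a call that ended under 4 alternatives. Agrn, a heparan sulfate proteoglycan that binds laminin, was 1.80 ± 0.34 higher in urothelium than in detrusor (adjusted p = 0.00528). Col4a2, a chain of the collagen network of basement membranes, was lower there (-2.16 ± 0.43, adjusted p = 0.00650). The medians of the list were 0.38 for urothelium against detrusor, -0.42 for detrusor against stroma and -0.16 for urothelium against stroma, and over all genes they were -0.01, -0.16 and -0.12.

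Of 18 genes that were listed as other integrin ligands and passed the filter, 4 were lower in urothelium than in detrusor and 0 higher. Over all genes 8.05% and 8.37% were. In the other pairs 0 of the 18 were called, and binding to integrins was not measured. The median difference of urothelium from detrusor was -0.43. Postn, a matrix protein bound by integrins of the Itgav chain, was lower by 3.05 ± 0.57 (log2 -3.05, limma adjusted p = 0.00522). Emilin1, a ligand of Itga9, had 12.66, 12.21 and 12.62 in detrusor, 12.08, 11.53 and 11.04 in stroma and 10.52, 9.34 and 11.12 in urothelium, and was lower in urothelium than in detrusor (-2.17 ± 0.46, adjusted p = 0.00926). Tgfb2, a transforming growth factor, was lower as well and differed by -2.34 ± 0.68 (adjusted p = 0.0394), a call that ended under 6 alternatives. Tgfb1 (0.03, limma adjusted p = 0.976) and Tgfb3 (-1.51, adjusted p = 0.1925), also on the list, were not called in that pair.

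The proteins that couple integrins to actin formed the longest list, so its number of calls was not ranked against those of the shorter lists. Of 22 genes of this longest list that passed the filter, 10 were lower in urothelium than in detrusor and 0 higher, against 8.05% and 8.37% of all genes. For detrusor over stroma 5 were higher and 0 were lower, against 3.12% and 2.72%. The medians were -1.10 and 0.86, against -0.01 and -0.16 over all genes, and between urothelium and stroma no gene was called (median -0.28). Parva, which binds integrin-linked kinase and actin, had 14.63, 14.67 and 15.19 in detrusor, 12.71, 11.81 and 12.69 in stroma and 11.75, 11.55 and 12.91 in urothelium. It was lower in urothelium than in detrusor (-2.76 ± 0.40, limma adjusted p = 0.00179) and higher in detrusor than in stroma (2.43 ± 0.40, adjusted p = 0.00995). Fblim1, a filamin-binding adaptor (-2.30 ± 0.45, adjusted p = 0.00654), and Tns1, the actin-binding tensin of fibrillar adhesions (-3.20 ± 0.64, adjusted p = 0.00705), were lower in urothelium in the same way. Ilk, Vcl, Tns1, Fblim1 and Parva were the 5 genes higher in detrusor than in stroma, and these calls ended under 5, 3, 8, 14 and 1 of the alternatives in that order. Of the 8 smooth muscle markers, 6 were lower in urothelium than in detrusor with 2 higher in detrusor compared with stroma, and the part of muscle content in the values of this list was not tested.

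**Figure D5:**
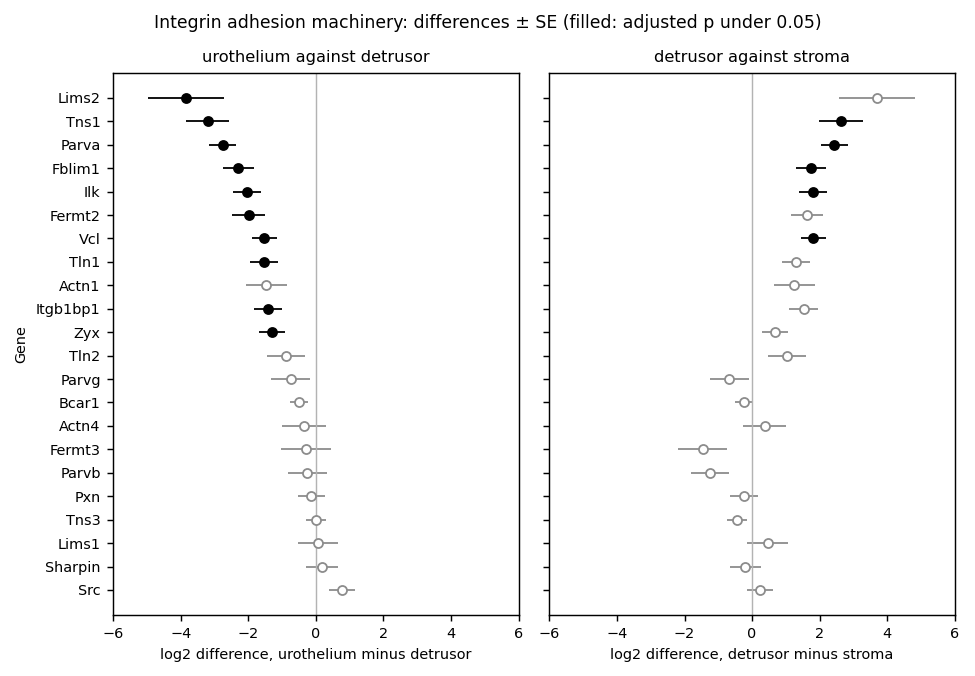
Differences of the 22 genes of the integrin adhesion machinery that passed the filter (rows), on the log2 scale with standard errors as bars, for urothelium against detrusor (left) and detrusor against stroma (right). Filled points have a limma adjusted p under 0.05, 10 on the left and 5 on the right, and the filled points all lie below 0 on the left and above 0 on the right.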

How the data were processed

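Per the submitters' processing notes, the authors made the deposited linear probe set intensities with GCOS, Affymetrix software whose version, algorithm and target level are not given in the sources used. After trimming 2% of probe sets at either end, the mean was 1500.01 on each of the 9 arrays, so each had been scaled, and that scaling was kept. Of 45101 probe sets, 64 were controls, and the platform annotation gave 34945 a single symbol, 932 several and 9160 none. A gene table of GRCm38.p6 matched 34754 by gene ID, with 0 symbols changed.

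Tests used log2(intensity + 39.31), whose constant is the 20th percentile over all arrays, and folds of dim genes are therefore understated. Probe sets at or above the array's median on at least 3 arrays were kept, and the brightest on average represented its gene. The fit was made in R 4.3.3 with limma 3.58.1 (layer the only term, moderated with trend=TRUE), with Benjamini-Hochberg adjustment over 13064 genes per comparison, and the code was tested on simulated data. The number of arrays limits the precision. Values on every array are given for Itga4, Itgb4, Itga8, Lamb3, the called genes, Itgb1 and Lama3, and each related list names the 3 genes with the smallest adjusted p. Other genes given on every array or named beyond these were chosen after their values were seen. The group of genes, lists and alternatives were proposed with earlier results of these data known. The 21 alternatives concern normalization, pseudocount, filter, probe set, postnatal day, array weights, arrays in the fit, trend and arrays left out.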

Additional observations from a re-analysis of the deposited data

How the results depend on the processing

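No paired analysis was possible because the labels give no replicate numbers that pair samples across layers. Of the 11 called differences, 238 values over the alternatives held 171 with the same direction and still past the threshold, 63 with the same direction past it no longer, and 4 of the other direction, all of Itgb5 between urothelium and detrusor (-0.0084 with the mean of its probe sets, and -0.32, -0.30 and -0.43 with each other probe set). The cause of these changes was not tested.

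For detrusor against stroma, 2 subunits were called, and the count was 4 with quantile normalization or array weights, 5 with median centring, the median as pseudocount or a fit of the 6 arrays compared, and 6 with postnatal day as a covariate. Calls over all genes were 763 in the main fit. Under these alternatives they were 800, 818, 732, 805, 625 and 702, in the order named. For urothelium against stroma, the count of 0 became 1 with quantile normalization, a filter on 6 arrays or the mean of the probe sets, and 2 with the median as pseudocount or without stroma 3 and urothelium 3. Over all genes the 30 calls of the main fit became 93, 112, 116, 304 and 440, in the order named. For urothelium against detrusor, the count of 9 became 16 with array weights, while calls over all genes went from 2145 to 3785. With the mean of the probe sets the count for this pair was again 9, but with 1 higher and 8 lower in place of 3 and 6. Calls over all genes were then 2090. The F-test's count of 7 became 4 with the lowest pseudocount or without the trend, and 12 with array weights. Its 1951 calls over all genes became 1866, 1720 and 3162, in the order named. Leaving out 1 array at a time gave 0 to 5 calls for detrusor against stroma, 0 to 2 for urothelium against stroma, 2 to 9 for urothelium against detrusor and 3 to 11 for the F-test. Over all genes these fits gave 105 to 851, 0 to 528, 1172 to 2435 and 813 to 2180 calls, in the same order. In the first comparison the count of subunits was 0 without detrusor 2 or 3, 1 without stroma 3, 4 without stroma 2 and 5 without urothelium 2 or 3. In the second it was 2 without stroma 3. In the third it was 4, 3 and 2 without detrusor 1, 2 and 3, and 3 and 4 without urothelium 1 and 2. The F-test gave 4, 4 and 3 without detrusor 1, 2 and 3, 11 without stroma 3 and 4 without urothelium 1. With 3 arrays a layer, a difference that was not called is not shown to be absent, and low signals have no detection calls.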
